A study of Mus musculus with 12 samples.

Results

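The genes described here encode the nuclear parts of the mitochondrial respiratory chain and of ATP synthase. They were chosen by symbol, as every gene named alone by a probe set of the array's annotation with a symbol that begins with Nduf, Uqcr, Cox followed by a digit from 4 to 8, or Atp5. The rule found 86 genes in 170 probe sets, out of 18195 genes with such a probe set. Each gene is represented by its probe set with the highest mean signal, and 81 of the 86 were bright enough to be tested among 12089 genes. Genes carried by mitochondrial DNA were not analysed here.

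The samples are pieces of the posterior neural tube of CD1 mouse embryos, an outbred strain, at embryonic day 9.5. The tube was loosened with pancreatin, a digestive enzyme mixture, freed of other tissue with needles and divided into 6 pieces, called part 1 to part 6, and no genetic change or other treatment was applied. Each part was measured on 2 arrays, replicate 1 and replicate 2, and the design text names 2 embryos as the source, so every p-value rests on 2 animals. The labels do not say which number is the caudal end, and the values are therefore given by part number. Markers of the labelled tissue were present and differed along the tube. Summed over 7 tested neural progenitor markers, the array signal was 5657 and 5895 in part 6, against 548 and 600.4 in part 1 (replicates 1 and 2), and 5 markers of the caudal growth zone summed to 1092 and 988 in part 6, against 5353 and 6252 in part 1. Markers of neighbouring tissue also had signal. The 7 presomitic mesoderm markers summed to 244 and 257 in part 6, against 5562 and 4017 in part 1. For 7 surface ectoderm markers the sums were 125 and 129, against 1067 and 406. Rspo3 and Hes7 had the highest part 1 means in the mesoderm list (2610.81 and 1126.49). Mesp2 of the mesoderm list and Grhl2 of the ectoderm list had a higher mean in part 6 than in part 1. In the neural progenitor list, Irx3 and Sox2 had the highest part 6 means (2710.79 and 1518.4). Nes of that list went the other way, with a mean of 108.7 in part 6, against 133.4 in part 1. The sums alone do not establish that such tissue was present. In pieces of tissue, fewer cells of a type and less RNA per cell cannot be told apart.

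Mitochondria make ATP by passing electrons from NADH along complexes I, III and IV to oxygen. Complexes I, III and IV pump protons across the inner membrane as the electrons pass, and ATP synthase, often called complex V, lets the protons flow back and uses that flow to join phosphate to ADP. Embryonic tissues that grow quickly are known to rely heavily on glycolysis, and the use of the respiratory chain generally increases as neural cells differentiate. The subunits of 1 complex are needed in fixed proportion, and many of their nuclear genes are known to share binding sites for the factors NRF1, GABP and YY1.

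The sequences just before the gene starts are shown first, since genes of these complexes are known for shared sites there and the array data did not enter them. RefSeq promoter windows on build GRCm38.p6, from 250 bases before to 50 bases after the start, were matched for 71 of the 86 genes. The NRF1 word GCGCATGCG, searched on both strands, was found in 9 of the 71 (12.7%), against 1.95% of 27025 genes. For all words, that background is every gene with a window, tested on the array or not. It was not matched to the members in signal or base composition, so the shares do not show a trait particular to them. The NRF1 word was shortened from its symmetric form of 10 letters to 9 after the count for the longer form had been seen. The longer form was in 6 of the 71 (8.45%), against 1.07% of all genes, and Atp5l, Ndufa8 and Uqcr11 matched only the shorter one. In 6 of the 9 the 9-letter word lies wholly before the start, and those stretches are printed below, each with up to 25 bases on either side. They belong to Atp5l and Atp5k, the g and e subunits of ATP synthase, to Atp5g2, a c subunit gene of its ring, to Cox6a1 of complex IV, to Ndufa8 of complex I and to Ndufaf4, a complex I assembly factor. Each is printed 5′ to 3′ on the gene's strand, and the capitals mark all bases matched by the word on either strand.
Atp5l, chr9:44920950-44920992, minus strand: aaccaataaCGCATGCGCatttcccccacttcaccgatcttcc
Atp5k, chr5:108434415-108434474, minus strand: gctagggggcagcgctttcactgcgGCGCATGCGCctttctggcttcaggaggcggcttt
Atp5g2, chr15:102671055-102671114, minus strand: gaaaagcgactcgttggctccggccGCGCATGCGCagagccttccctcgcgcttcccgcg
Cox6a1, chr5:115349086-115349145, minus strand: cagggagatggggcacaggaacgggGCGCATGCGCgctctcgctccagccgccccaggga
Ndufa8, chr2:36049339-36049372, minus strand: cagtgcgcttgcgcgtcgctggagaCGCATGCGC
Ndufaf4, chr4:24897945-24898004, plus strand: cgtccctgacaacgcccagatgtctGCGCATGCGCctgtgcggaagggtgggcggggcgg

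The first capital lay 241 bases before the start in Atp5l, 50 in Atp5k, 42 in Atp5g2, 162 in Cox6a1, 9 in Ndufa8 and 113 in Ndufaf4. Atp5l is 1 of the 2 genes that passed the test along the tube, and the other 5 did not pass it. With the 2 middle bases free (GCGCNNGCG, which includes the first word), 29 of 71 members had a match (40.8%), against 13.5% of all genes. The YY1 word AAGATGGCG, searched on both strands, was in 7 members (9.86%), against 1.64% of all genes. For the GABP word CCGGAAGT the count was 5 members (7.04%), against 4.31%, and for the SP1 word GGGCGGG it was 26 (36.6%), against 27.9%. The word TCAAGGTCA of the oestrogen-related receptors was in 1 member (1.41%), against 0.466%, and TATAAA in 8 (11.3%), against 15.7%. A match describes the letters of the window and is not a measured binding site.

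One array stood apart for these genes, and it is named before the comparisons because many of them rest on it. On the array of part 1 replicate 2, the median of the 81 genes lay 0.47 above their own means on the log2 scale, and 76 of the 81 lay above. On the other 11 arrays the same median lay between -0.16 and 0.13, and on part 1 replicate 1 it was -0.03, with 34 genes above. The median of all 12089 genes on the array of part 1 replicate 2 was -0.01. For 66 of the 81 genes this array held the highest of the 12 signals (81.5%), against 18.9% of all genes tested. Within part 1, replicate 2 was above replicate 1 in 73 of 81 genes (90.1%), against 43.4% of all genes. Its signal over the mean of the other 11 arrays had a median ratio of 1.43 and quartiles of 1.22 and 1.59. The median deviation there was 0.60 for complex I (34 of 35 genes above their mean), 0.40 for the Ndufaf assembly factors (8 of 8), 0.49 for complex III (7 of 8), 0.35 for complex IV (12 of 13) and 0.43 for ATP synthase (15 of 17).

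**Figure D1:**
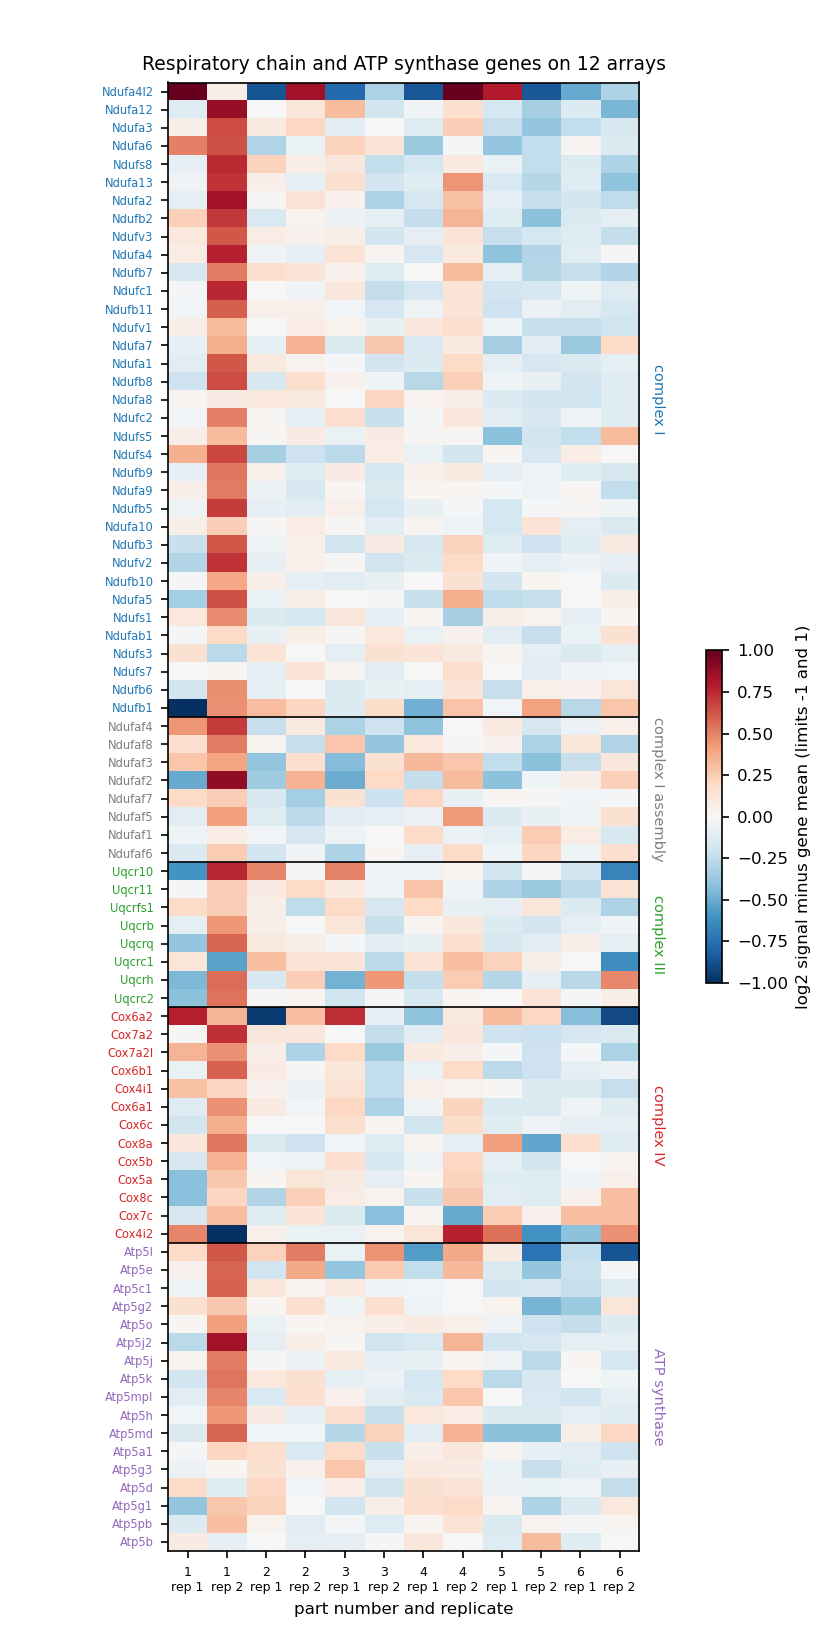
Log2 signal of the 81 tested genes minus each gene's mean over the 12 arrays (colour, limited to -1 and 1), with genes in rows by complex and arrays in columns by part number and replicate. The column of part 1 replicate 2 is red in nearly every row, with 76 of 81 genes above their mean.

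The highest ratio on that array belonged to Ndufaf2, an assembly factor of complex I, with 127 and 339.6 in part 1 (replicates 1 and 2). For Atp5j2, the f subunit of ATP synthase, the 12 signals were 4139, 2423, 2009.7, 2925, 2062 and 2178 in parts 1 to 6 of replicate 2, and 1919, 2173, 2327, 2084, 2022 and 2165 in replicate 1. The part 1 value of replicate 2 lay above all 11 others, and the slope of Atp5j2 was 0.00 without it and -0.06 with it. In 5 of the 81 genes the signal was lower on this array than the mean of the other 11. They were Cox4i2 (ratio 0.169), Uqcrc1 (0.654), Ndufs3 (0.813), Atp5d (0.906) and Atp5b (0.934). Uqcrc1 encodes a core protein of complex III, Ndufs3 a core subunit of complex I, and Atp5d and Atp5b the delta and beta subunits of the ATP synthase head. Among complex I genes, the 6 nuclear core subunits, which carry the redox centres and are conserved from bacteria, had a median deviation of 0.40 there, and the 29 other tested genes with complex I symbols, Ndufa4 and Ndufa4l2 among them, one of 0.62, with all 29 above their mean.

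Other gene groups lay above or below their means on this array to different extents. On the array of part 1 replicate 2, the median deviation was 0.51 for the 39 respiratory chain and ATP synthase genes with a mean signal over 1000, against 0.11 for the 933 other genes over 1000. For the 42 up to 1000 it was 0.41, against -0.02 for all 11117 tested genes up to 1000, these 42 included. The 40 tested cytosolic ribosomal protein genes, a set of short and abundant transcripts, had a median of 0.34 (37 of 40 above). A list called cytochrome c and carriers here had 0.33 (9 of 12). It held Cycs, Cyc1, Slc25a3, Slc25a4, Slc25a5, Vdac1, Vdac2, Vdac3, Atpif1, Etfa, Etfb and Etfdh. Cyc1 encodes cytochrome c1, a complex III subunit whose symbol the rule does not match. The 15 genes of the TCA cycle, which feeds NADH to complex I, had 0.19 (11 of 15). Complex II, with 4 genes, was at 0.03, the 22 assembly factors with other symbols at -0.05, and the 12 regulators of mitochondrial biogenesis at -0.16.

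Signs of RNA processing and of blood also differed on the part 1 arrays. The signal at the 3′ end of the actin control over that at its 5′ end, a ratio that grows as the labelled copies get shorter, was 16.05 on part 1 replicate 2, the highest of the 12 arrays, and 12.9 on part 1 replicate 1. It ranged from 5.24 to 14.7 on the other 10. The Gapdh control gave 8.50 on part 1 replicate 2 and 9.39 on part 1 replicate 1, against 2.94 to 9.17 on the other 10. Blood markers (5 tested, with the embryonic globins Hbb-y, Hbb-bh1 and Hba-x) summed to 9924, 2822, 5543, 4079.8, 6863 and 6283 in parts 1 to 6 of replicate 2, and to 36.8, 6142, 1292, 2698, 1486 and 76.9 in replicate 1. The highest blood sum was on the array that also held the highest values of the respiratory chain genes. The array of part 2 replicate 1, with a blood sum of 6142, had a median deviation of 0.01 for these genes, and part 6 replicate 2, with 6283, had -0.10. The part of blood RNA and of copy length in the deviation was not tested.

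**Figure D2:**
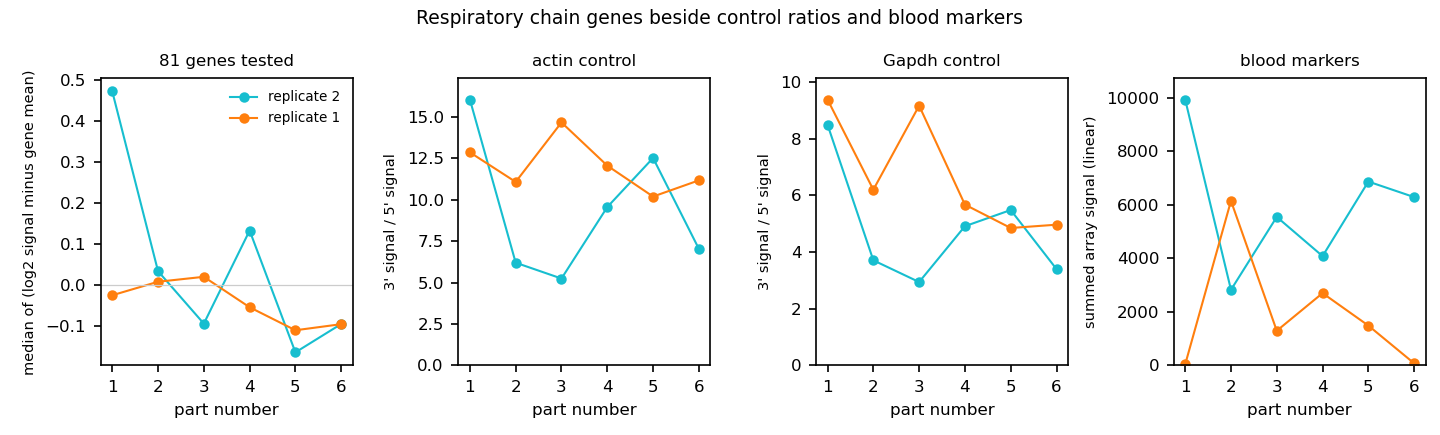
Median deviation of the 81 tested genes (log2), ratio of 3′ to 5′ signal of the actin and Gapdh controls, and summed signal of 5 blood markers, by part number, with 1 line per replicate. Part 1 replicate 2 has the highest median deviation (0.47), the highest actin ratio (16.05) and the highest blood sum (9924).

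The first comparison asked whether the genes changed along the part number, by a slope of log2 signal per part over the 12 arrays (limma, Benjamini-Hochberg over 12089 genes, threshold 0.05). In all, 2 genes fell and 0 rose. The genes that fell were Atp5l, the g subunit of ATP synthase, and Ndufa3, an accessory subunit of complex I. They are 2 of 81 (2.47%), where 7.08% of all genes tested fell and 5.66% rose. At an unadjusted p under 0.05 the count was 19 of 81 (23.5%), against 26.6% of all genes. Most slopes were small and negative: the median was -0.05 per part, against -0.01 for all genes tested, and 72 of 81 were below 0 (88.9%), against 54% of all genes. The 40 tested cytosolic ribosomal protein genes also had mostly negative slopes, with a median of -0.04 and 34 of 40 below 0. Without part 1 replicate 2 that set had a median of -0.01 and 26 of 40 below 0, against 54.6% of all genes. On simulated data, with fewer changed genes than were called here, the slope fit called only 2% of genes given a slope of 0.05 per part. A missing call therefore does not show that a gene was unchanged. With the replicate number as a block the same 2 genes fell, and 8.42% of all genes did. Without part 1 replicate 2, limma called 0 of the 81 at 0.05, while 7.49% of all genes still fell, the median slope was -0.02, and 55 of the 81 slopes were below 0. Without part 1 replicate 1 it called 7 lower (8.64%, against 5.16% of all genes), with a median of -0.07.

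The replicates gave slopes of unequal size. In replicate 2 alone the median slope was -0.09 and 76 genes were below 0, and in replicate 1 alone it was -0.02 and 58 were below 0. Of all genes tested, 52.9% had a slope below 0 in replicate 2 alone and 53.4% in replicate 1 alone. Both replicates gave a negative slope for 55 of the 81 genes (67.9%), against 36% of all genes, and both gave a positive one for 2 (2.47%), against 29.7%. The 2 with a positive slope in both were the complex I assembly factors Ndufaf1 and Ndufaf6. By complex, the median slope was -0.05 for complex I (34 of 35 below 0), -0.01 for its Ndufaf assembly factors (5 of 8), -0.04 for complex III (7 of 8), -0.04 for complex IV (10 of 13) and -0.05 for ATP synthase (16 of 17). Without part 1 replicate 2 these medians were -0.03 for complex I (27 of 35 below 0), 0.02 for the assembly factors (3 of 8), -0.03 for complex III (5 of 8), -0.01 for complex IV (8 of 13) and -0.03 for ATP synthase (12 of 17).

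**Figure D3:**
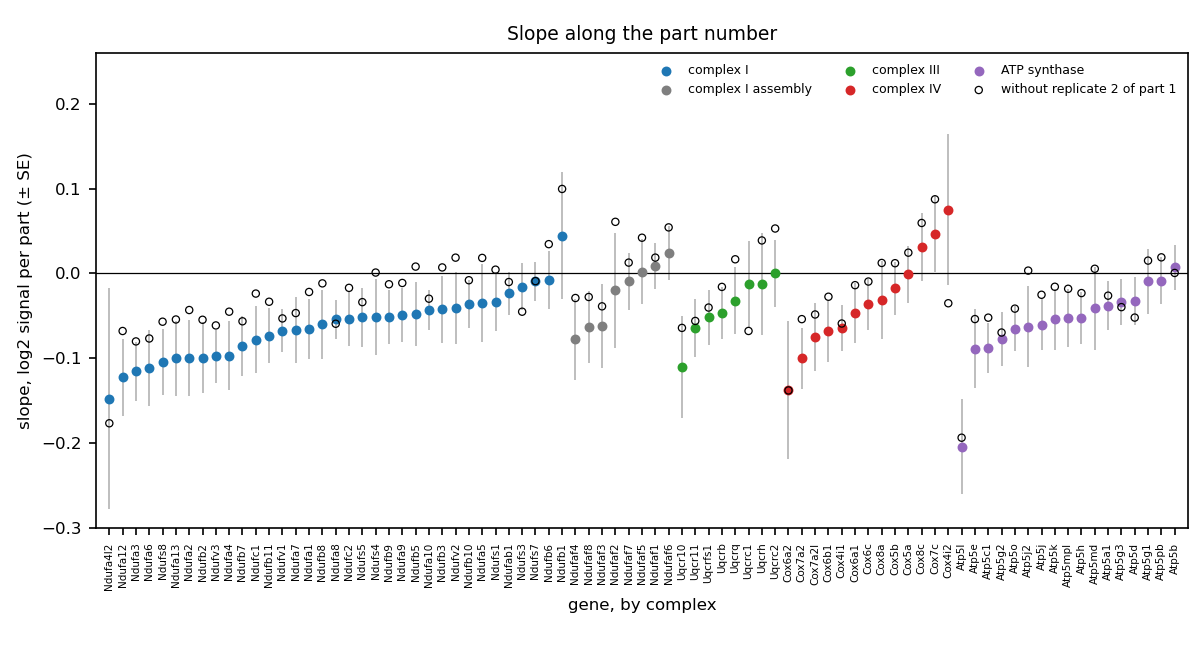
Slope of log2 signal per part number for the 81 tested genes, ordered by complex and by slope (filled points with standard error), and the slope without part 1 replicate 2 (open points). Filled points are mostly below 0 (72 of 81), and the open points lie nearer to 0, with a median of -0.02.

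Complex I, which takes electrons from NADH, has 36 member genes by symbol, of which 35 were tested. Ndufa3 had signals of 1169.8, 1198, 1043, 1030.2, 959.7 and 949.9 in parts 1 to 6 of replicate 1 and 1769.9, 1299.8, 1129.8, 1336, 861 and 1006 in replicate 2. Its parts 1 and 6 did not overlap, the highest signal was that of part 1 replicate 2, and the lowest was in part 5. The slope was -0.12 ± 0.035 log2 per part (SE, 12 arrays; limma adjusted p = 0.0436), and it was -0.08 (adjusted p = 0.119) without part 1 replicate 2. The call held in 3 of the 12 fits that left out 1 array, with adjusted p up to 0.119. A second bright probe set of Ndufa3 had a slope of -0.10, and a dim further one -0.03.

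Next in complex I was Ndufv3, an accessory subunit of the NADH-binding module, with a slope of -0.10 ± 0.031 log2 per part (limma adjusted p = 0.0577). Its signals were 638 and 592 in part 6, against 749 and 1075 in part 1, so the end pieces did not overlap. Ndufa6, which belongs to the part of complex I where quinone is reduced, had 217 and 193 in part 6, against 303 and 333 in part 1. The difference was -0.62 ± 0.18 log2 (SE; limma adjusted p = 0.0650), both part 1 arrays being higher than all 10 others. Ndufa6 passed for this difference in the fit with the replicate number as a block. The only tested complex I gene with a slope above 0 was Ndufb1, an accessory subunit of the membrane arm, at 0.04 ± 0.075 log2 per part. It was dim, with 19.3 and 30.4 in part 6, against 7.94 and 35.0 in part 1, and the low value of part 1 replicate 1 sets that sign.

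Another pair of complex I symbols stands for proteins with an isoform or a second role. Ndufa4, now counted with complex IV, had 518 and 554 in part 6, against 587 and 960.3 in part 1, with a slope of -0.10 ± 0.041 log2 per part (limma adjusted p = 0.147) and of -0.05 without part 1 replicate 2. Its hypoxia-induced paralog Ndufa4l2 was above the median of its array on only 4 of 12 arrays. Ndufa4l2 had 4.86 and 6.23 in part 6, against 32.1 and 9.38 in part 1, a difference of -1.17 ± 0.83 log2 that did not pass (adjusted p = 0.448).

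Among the 8 Ndufaf assembly factors, which help to build complex I and are not part of it, none was called. Ndufaf4 had 505 and 547 in part 6, against 719 and 858 in part 1, and 719, 449, 423, 399, 564 and 505 over parts 1 to 6 of replicate 1. Both part 1 arrays were higher than the other 10, and the lowest signal was in part 4. The slope was -0.08 ± 0.047 log2 per part (limma adjusted p = 0.331). Ndufaf8 had 346 and 257 in part 6, against 358 and 458 in part 1, with a slope of -0.06 ± 0.042 log2 per part (adjusted p = 0.382). Ndufaf6 had a slope of 0.02 ± 0.032 log2 per part and Ndufaf1 one of 0.01 ± 0.027 log2 per part, both within their errors of 0, and their end pieces overlapped.

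Complex III passes electrons from quinol to cytochrome c, and all 8 of its member genes were tested with no call. Uqcr11, a small subunit, had 441 and 582 in part 6, against 526 and 628 in part 1, with a slope of -0.06 ± 0.034 log2 per part (limma adjusted p = 0.256). Uqcr10, another small subunit, had 73.3, 161, 162, 109, 98.1 and 98.5 in parts 1 to 6 of replicate 1, and 195, 115, 109.9, 116, 112 and 69.7 in replicate 2. The part 1 arrays of Uqcr10 were the second lowest and the highest of the 12, and its slope of -0.11 ± 0.06 log2 per part did not pass (adjusted p = 0.272). It passed without part 1 replicate 1, at -0.20 (adjusted p = 0.0122). The core protein gene Uqcrc2 had a slope of 0.000185 ± 0.039 log2 per part, with 2522 and 2656 in part 6, against 1906 and 3706 in part 1. Both part 6 signals lay between the 2 part 1 signals.

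Complex IV, cytochrome c oxidase, hands the electrons to oxygen, and several of its nuclear subunits exist as isoforms of different tissues. Of 17 member genes 13 were tested and none was called. The smallest slope p in complex IV was that of Cox7a2, the widely expressed isoform of subunit 7a, with 4127, 4426, 4094, 3775, 3545 and 3625 in parts 1 to 6 of replicate 1 and 6776, 4411, 3469, 4412, 3518 and 3694 in replicate 2. Part 6 lay below part 1 on both arrays. The slope of Cox7a2 was -0.10 ± 0.036 log2 per part (limma adjusted p = 0.0867), and -0.05 (adjusted p = 0.21) without part 1 replicate 2. Its other probe set gave -0.10.

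Cox4i1 is the main isoform of subunit 4. Its signals were 2976, 2495, 2687, 2519, 2452 and 2211 in parts 1 to 6 of replicate 1, and 2823, 2334, 2039.8, 2490.5, 2202 and 2066 in replicate 2, with both part 1 arrays above every other array. The slope was -0.06 ± 0.027 log2 per part (limma adjusted p = 0.143) and stayed at -0.06 without part 1 replicate 2. The hypoxia and lung isoform Cox4i2 was dim, at 8.91 and 19.9 in part 6, against 20.5 and 2.64 in part 1. Its slope of 0.08 ± 0.089 log2 per part turned to -0.04 without part 1 replicate 2.

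Other complex IV subunits also exist as isoforms. Cox6a1, the common form of subunit 6a, had signals of 2400.2 to 4104, and its slope was -0.05 ± 0.035 log2 per part (limma adjusted p = 0.445). The heart and muscle form Cox6a2 was above the array median on only 2 of 12 arrays, with 6.68 and 3.57 in part 6, against 21.1 and 14.4 in part 1, a difference of -1.22 ± 0.42 log2 (adjusted p = 0.111). The striated muscle markers Myh7 and Actc1 summed to 24.3 and 23.7 in part 6, against 208 and 68.4 in part 1, and their part in the Cox6a2 values was not tested. The genes Cox6b2 (testis), Cox7a1 and Cox8b (heart and muscle) and Cox7b2 stayed under the median of their array on all 12 arrays, at 0.26 to 16.4, and were not tested. Ndufb4 of complex I, at 0.84 to 13.4, was the fifth member left out. A low array signal gives no proof of absence, since it cannot be told from background.

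Among the other complex IV genes, Cox5a had a slope of -0.00 ± 0.034 log2 per part, Cox5b of -0.02 ± 0.031 log2 per part, Cox6b1 of -0.07 ± 0.036 log2 per part and Cox6c of -0.04 ± 0.03 log2 per part, none of them called. Cox7a2l, which ties complexes III and IV into supercomplexes, had 1966 and 1592 in part 6, against 2517 and 2729.8 in part 1, without overlap (slope -0.07 ± 0.04 log2 per part; limma adjusted p = 0.257). Cox8a, the common form of subunit 8, had -0.03 ± 0.046 log2 per part, and Cox8c, known from testis, 0.03 ± 0.04 log2 per part, with end pieces that overlapped. Cox7c had the largest positive slope among complex IV genes above their array median on all 12 arrays, 0.05 ± 0.045 log2 per part (adjusted p = 0.568), with 98.5 and 98.2 in part 6, against 69.8 and 98.9 in part 1.

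All 17 ATP synthase genes were tested, and Atp5l was called. Its signals were 96.1, 99.3, 79.8, 55.6, 89.7 and 70.0 in parts 1 to 6 of replicate 1 and 131, 121, 116, 110.4, 48.5 and 44.1 in replicate 2. Replicate 2 was above replicate 1 in parts 1 to 4 and below it in parts 5 and 6. Both part 6 arrays lay below both part 1 arrays, with a mean of 57.1 ± 18.4 in part 6 and 114 ± 24.7 in part 1 (SD, n = 2 each). The slope was -0.20 ± 0.056 log2 per part (limma adjusted p = 0.0295), and -0.19 (adjusted p = 0.0741) without part 1 replicate 2. The call held in 8 of 12 fits that left out 1 array and was lost without the replicate 2 array of part 1, 2, 5 or 6, with adjusted p up to 0.106. Atp5l had no other probe set. Of the NRF1, GABP and YY1 words, the promoter window of Atp5l held the NRF1 word shown above in its shorter form only, and that of Ndufa3 held none.

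The head of ATP synthase makes the ATP. Atp5c1, the gamma subunit that turns inside the head, had 2809, 3147, 3106, 2845, 2538 and 2466 in parts 1 to 6 of replicate 1, and 4364, 2976, 2809, 2899.5, 2579 and 2653 in replicate 2. Its slope was -0.09 ± 0.03 log2 per part (limma adjusted p = 0.0706), and -0.05 without part 1 replicate 2. Atp5b, the catalytic beta subunit, had 2685 and 2924 in part 6, against 3091 and 2746 in part 1, with a slope of 0.01 ± 0.027 log2 per part and part 5 replicate 2 as its highest array. The difference between the slopes of Atp5c1 and Atp5b was not tested. The c subunit, which forms the rotating ring, is encoded by several genes with different leader peptides. Their slopes were -0.01 ± 0.038 log2 per part for Atp5g1, -0.08 ± 0.032 log2 per part for Atp5g2 (adjusted p = 0.144) and -0.03 ± 0.027 log2 per part for Atp5g3.

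**Figure D4:**
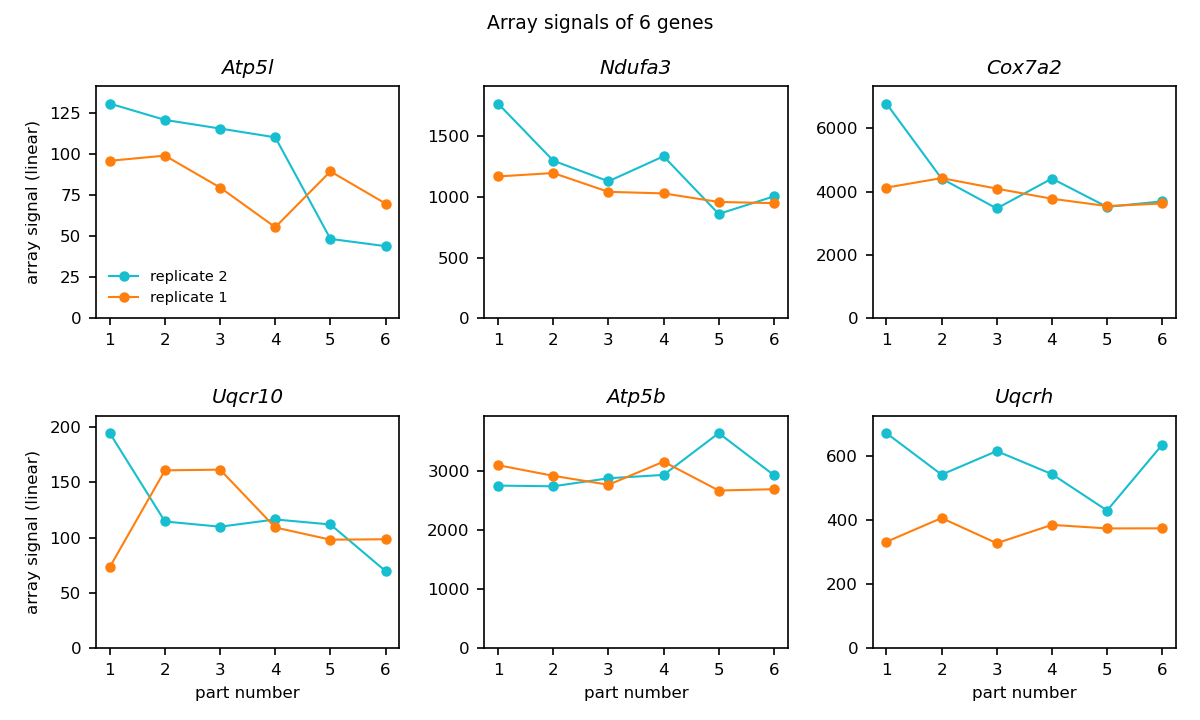
Linear array signals of Atp5l, Ndufa3, Cox7a2, Uqcr10, Atp5b and Uqcrh by part number, with 1 line per replicate. Ndufa3, Cox7a2 and Uqcr10 peak on part 1 replicate 2 (1769.9, 6776 and 195), and Uqcrh is higher in replicate 2 in all 6 parts.

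The second comparison set the end pieces against each other. Part 6 minus part 1 gave 0 calls among the 81 genes by limma, where 9.09% of all genes passed, 4.92% lower and 4.17% higher. At an unadjusted p under 0.05 there were 13 (16%), against 23.3% of all genes. The median difference was -0.31 log2, against -0.06 for all genes, and 73 of the 81 were negative, against 6635 of 12089 genes. In 40 genes both part 6 arrays lay below both part 1 arrays (49.4%), against 26.7% of all genes, and in 0 genes both lay above, against 20.2%. The 40 comprised 22 of 35 complex I genes, 4 of 8 assembly factors, 1 of 8 complex III genes, 4 of 13 complex IV genes and 9 of 17 ATP synthase genes.

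The end-piece values differed with the part 1 array used. Both part 6 arrays were below part 1 replicate 2 in 74 genes (91.4%), against 42.7% of all genes, and below part 1 replicate 1 in 45 genes (55.6%), against 47.2%. Without part 1 replicate 2 the median difference was -0.08, against -0.09 for all genes, and 54 of 81 were negative. Without part 1 replicate 1 the median was -0.54, against -0.03, and 17 genes were called lower (21%), against 4.62% of all genes. Those 17 included Ndufa12, Ndufs8, Ndufv2, Uqcr10, Cox7a2, Atp5c1 and Atp5j2. With replicate number as a block, 1 gene was called, Ndufa6.

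No difference among the 6 parts was called by the F test of limma, which passed 4.91% of all genes and 0 of the 81. At an unadjusted p under 0.05 it counted 3 (3.7%), against 15.7% of all genes. These were Ndufa6, Ndufaf4 and Ndufs4, an accessory subunit of complex I, chosen here after their values were seen. In the step from part 1 to part 2, the median difference (part 2 minus part 1) was -0.19 log2, against -0.02 for all genes tested. The difference was negative in 68 of 81 genes, against 6314 of 12089 genes. Limma called 0 of the 81 (0.248% of all genes), and 7 had an unadjusted p under 0.05 (8.64%, against 10.8% of all genes). Ndufs4 had 239 and 261 in part 2, against 387 and 483 in part 1, a difference of -0.78 ± 0.19 log2, and both part 1 arrays were above both part 2 arrays. Ndufa6 had 172 and 203 in part 2, against 303 and 333 in part 1 (-0.75 ± 0.18).

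The later steps alternated in sign. Part 3 minus part 2 had a median of -0.04 (24 of 81 positive), part 4 minus part 3 one of 0.10 (63 positive), part 5 minus part 4 one of -0.18 (10 positive) and part 6 minus part 5 one of 0.03 (47 positive). Over all 12089 genes tested, the medians of these steps were -0.003, 0.01, 0.002 and -0.03. The positive counts over all genes were 5970, 6340, 6095 and 5160. Limma called 0 of the 81 in each of these 4 steps, where it called 0.19% of all genes in the first of them and 0.00827% in each of the others. At an unadjusted p under 0.05 the counts were 0, 0, 2 and 0, where 5.03%, 3.23%, 3.63% and 3.83% of all genes had such a p. Consecutive steps share a part, and the median deviations of parts 3 and 4 were -0.09 and 0.13 in replicate 2, and 0.02 and -0.05 in replicate 1.

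**Figure D5:**
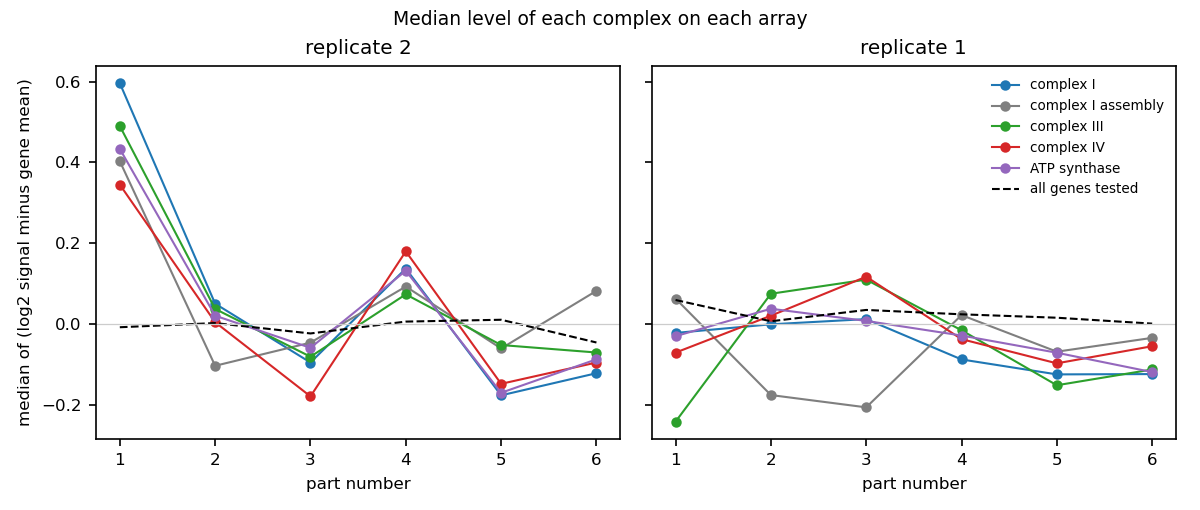
Median over each complex of log2 signal minus gene mean, by part number, for replicate 2 (left) and replicate 1 (right), with the median of all genes tested as a dashed line. In replicate 2 every complex is highest in part 1 (0.35 to 0.60), and in replicate 1 no complex exceeds 0.12.

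The last comparison was between the replicates, which the design text ties to 2 embryos. Replicate 2 minus replicate 1, with the part as a covariate, gave 0 calls among the 81 genes by limma, where 1.63% of all genes passed, and 10 at an unadjusted p under 0.05 (12.3%), against 19.8% of all genes. The median was 0.09, against -0.04 for all genes, and 62 of 81 were positive, against 5113 of 12089 genes. Without either array of part 1 the median was 0.02. Uqcrh, the hinge protein of complex III, had 671, 542, 615, 543, 429.5 and 635 in parts 1 to 6 of replicate 2, against 332, 406, 327, 385, 374 and 374 in replicate 1. It was higher in replicate 2 in all 6 parts, by 0.63 ± 0.12 log2, just short of the threshold (adjusted p = 0.0502).

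Ndufa7, an accessory subunit of complex I, had 507, 502, 473, 417, 363 and 450.0 in replicate 2, against 369.8, 371, 356, 353, 311 and 302 in replicate 1, a difference of 0.39 ± 0.086 log2 (limma adjusted p = 0.0683). It too was higher in replicate 2 in all 6 parts. In the other direction, Uqcrc1 differed by -0.31 ± 0.12 log2 (adjusted p = 0.216), and Cox7a2l by -0.23 ± 0.11 (adjusted p = 0.289). The blood marker sum was also higher in replicate 2 in 5 of 6 parts, as given above, and its part in these differences was not tested.

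The range over the tube was small for most of these genes. The median range of the 6 part means was 0.42 log2, against 0.49 for all genes tested, and the range exceeded 1 log2 in 2 of 81 genes, against 1974 of 12089. The 2 were the dim genes Ndufa4l2 and Cox6a2, above the array median on only 4 and 2 of 12 arrays. The pooled SD within parts had a median of 0.22, against 0.25. Of 75 further probe sets kept for 46 of the genes, 63 had a slope of the same sign as the chosen one, with a median of -0.04.

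The pathway around the complexes was read from lists of related genes. In complex II, which passes electrons from succinate to quinone, 0 of 4 tested genes were called by limma at 0.05, and the smallest p was that of Sdhb, the iron-sulphur subunit (slope -0.04 ± 0.022, unadjusted p = 0.0802, adjusted p = 0.253). Of 12 tested genes in the list called cytochrome c and carriers, 1 fell (8.33%), against 7.08% of all genes, and all 12 slopes were negative, against 54% of all genes. That gene was Etfa, the alpha subunit of the electron transfer flavoprotein, which brings electrons from fatty acid and amino acid breakdown into the chain. Etfa had 373, 304, 247, 232, 182 and 160.0 in parts 1 to 6 of replicate 1, and 354, 268, 228, 176, 145 and 92.7 in replicate 2. Its signal was lower at each step in both replicates, and the slope was -0.30 ± 0.037 log2 per part (limma adjusted p = 0.000147).

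Etfa was called in all 12 fits that left out 1 array, with an adjusted p of 0.000686 without part 1 replicate 2. It also passed for part 6 minus part 1, with 160.0 and 92.7 in part 6, against 373 and 354 in part 1, a difference of -1.54 ± 0.26 log2 (limma adjusted p = 0.00553). Among 22 tested assembly factors with other symbols, 2 rose and 0 fell, where 5.66% of all genes rose and 7.08% fell. Cox11, which delivers copper to complex IV, had 381 and 396 in part 6, against 244 and 294 in part 1, with a slope of 0.09 ± 0.027 log2 per part (limma adjusted p = 0.0444), a call that held in 2 of 12 fits without 1 array (adjusted p up to 0.146). Ttc19, a factor of complex III, had 87.1 and 101 in part 6, against 68.1 and 62.8 in part 1, with a slope of 0.09 (adjusted p = 0.0417), called in 4 of 12 (up to 0.138). Of the other probe sets of Ttc19, 1 had a similar slope of 0.08 and 1 had the opposite sign, at -0.10.

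In the TCA cycle list 0 of 15 tested genes were called by limma at 0.05. The smallest p was that of Pdha1, the pyruvate dehydrogenase subunit that admits carbon from glycolysis (slope -0.07 ± 0.035, unadjusted p = 0.0509, adjusted p = 0.190). Of 12 regulators of mitochondrial biogenesis, limma called 0 without the replicate block, and 2 of the 12 slopes were below 0, against 54% of all genes, with a median of 0.04. The smallest p belonged to Gabpa, which encodes the DNA-binding subunit of GABP (slope 0.12 ± 0.041 log2 per part, unadjusted p = 0.0123, adjusted p = 0.0780). With the replicate number as a block Gabpa was called higher (limma adjusted p = 0.0275), where 6.61% of all genes were. Gabpa had 283, 405, 376, 447, 508 and 501 in parts 1 to 6 of replicate 1, and 409.9, 494, 614, 438, 549 and 630.4 in replicate 2, so that both part 6 arrays lay above both part 1 arrays. Without the block, leaving out 1 array gave adjusted p from 0.0363 (without part 3 replicate 2, the 1 such fit that called it) to 0.249 (without part 1 replicate 1). The other probe set of Gabpa had a slope of -0.02.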

How the data were processed

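The deposited values are linear array intensities, 1 per probe set and array, produced by the authors with MAS5, a step named in the submitters' processing notes; the sources used here name no version or settings. Per the labels, RNA was amplified in a double round and biotin-labelled, which favours 3′ ends. The trimmed mean (2% off each end) was 100 on every array, and the array medians were 16.7 to 19.1. The number of arrays limits the precision, and detection calls were not used.

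Of 178 matching probe sets, 8 named several genes and were left out. An offset of 4.43, which is 0.25 of the median signal (17.7), was added before taking log2, so differences of dim genes are understated. A probe set was kept if above its array's median on at least 2 of 12 arrays, so that 21679 stayed, and the brightest of these stood for its gene. The fits used limma 3.58.1 in R 4.3.3, with Benjamini-Hochberg adjustment over 12089 genes at 0.05. Every adjusted p is from these fits. The slope fit was also run on simulated data with 50 changed genes per slope size. It recovered 2% of them at a slope of 0.05 per part, 12% at 0.1, 62% at 0.2 and 92% at 0.5, with 5 false calls. The simulated data held fewer changed genes than the 12.7% of all genes called by slope here, which makes the adjustment stricter. They also held no pairing by replicate. The recovered shares may therefore understate those of the real fit. Signals were read against the median of their own array, not between probe sets.

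Same-numbered arrays deviated together in all 15 pairs of parts (correlation 0.183 to 0.335), so the replicate numbers were taken to pair the arrays. The main fits of slope, F test and part differences held no replicate term and treated the arrays as independent. Their errors and p-values therefore leave that pairing out. With the replicate number as a block, the limma adjusted p of the slope was 0.0310 for Atp5l and 0.0276 for Ndufa3. Other values with that block are given where they change a call.

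Named genes were those called, the 2 smallest slope p per direction and complex, the 2 largest end-piece differences per direction, the tissue isoforms, the 2 smallest replicate p per direction, and the called or else smallest-p gene of each related list. Others were chosen after their values were seen. The members and lists were chosen with earlier results of these data known.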

Additional observations from a re-analysis of the deposited data

How the results depend on the processing

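Depth is unknown for arrays, and 2 arrays per part set the precision. The slope calls rested on single arrays and on settings. All slope calls among the members were lower, and the share of all genes that fell is given in brackets. Against 2 of 81 in the main fit (7.08%), limma called 0 of 86 with no filter on low signals (3.91%). It called 4 of 75 with the 75th percentile filter (8.1%) and 4 of 81 after quantile normalization (6.47%). The count was 1 of 81 with each array centred on its median (7.17%), and 1 of 81 with the mean over probe sets (7.1%). It called 0 without both arrays of part 1 (4.36%), 0 without both of part 6 (4.31%), 0 in replicate 1 alone (2.84%) and 0 in replicate 2 alone (1.78%). Leaving out 1 array gave 0 to 7, where 5.16% to 7.49% of all genes fell. The 7 were without part 1 replicate 1 (5.16%), and 0 were called without any of part 1, 2, 5 or 6 replicate 2. Leaving out part 2, 4, 5 or 6 replicate 1 gave 1. The F test called 1 gene with the 75th percentile filter. Part 6 minus part 1 gave 1 with the replicate block, 1 with the 75th percentile filter, and 0 to 17 when 1 array was left out, 17 being without part 1 replicate 1. Among the 81 genes the replicate block changed no other call, the slope count staying at 2. In the related lists it called Gabpa (adjusted p = 0.0275). Replicate 2 minus replicate 1 gave 3 genes with an offset of 16, 3 with the 75th percentile filter, 1 after quantile normalization, 1 with centred arrays, and 0 to 1 when 1 array was left out, the 1 being Uqcrh without either part 5 array. Apart from the 17, shares over all genes are not given for the F test, end-piece and replicate counts under these settings. Those counts are therefore no result about the members. The median slope of the members was negative under all settings.

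Slopes near 0 turned sign, none of them called. For Ndufb1 it was -0.036 without both part 1 arrays, -0.0065 in replicate 2 alone and -0.062 (without part 1 replicate 1) to 0.0996 when 1 array was left out. Ndufaf4 had 0.035 without both part 1 arrays. Ndufaf1 ranged from -0.0028 (without part 5 replicate 2) to 0.027. Uqcrc2 had -0.015 with the mean over probe sets, -0.0079 without both part 6 arrays, -0.057 in replicate 2 alone and -0.040 (without part 1 replicate 1) to 0.053. Cox7c had -0.0090 without both part 6 arrays and -0.012 in replicate 2 alone. Cox4i2 had -0.080 in replicate 1 alone and -0.035 (without part 1 replicate 2) to 0.14. Atp5b had -0.035 in replicate 1 alone and -0.0083 (without part 5 replicate 2) to 0.020. The median over all genes was 0.0021 after quantile normalization. The cause of these turns was not tested.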
